A study of Rattus norvegicus with 18 samples.

Results

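Transcription factors that are commonly used to define microglia (Spi1, Runx1, Sall1, Maf, Mef2a, Mef2c, Ikzf1, Tal1 and Bhlhe41) were followed in cultured rat glia. Members were taken by symbol from the gene counts of every library, and 7 of the 9 were counted in both cell types, among 17327 gene symbols in microglia and 17307 in astrocytes. Mef2c and Bhlhe41 were not analysed here. The 18 libraries came from 6 groups of 3: primary microglia and primary astrocytes of wild-type Sprague-Dawley rats, each left untreated (control) or treated for 24 h with 25 µM Aβ42 fibrils or Aβ40 fibrils. Both cell types were prepared from mixed glial cultures of pooled cortices of newborn pups (postnatal day 2), the microglia by shaking them off and the astrocytes from the layer left behind, and both were kept without serum from shortly before treatment. The fibrils were grown from synthetic peptides of the 2 common lengths of amyloid beta. The comparisons addressed whether the factors responded to fibrils, whether the peptide length mattered, and whether the cell types responded alike.

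As background, PU.1 (encoded by Spi1) is the ETS factor that opens the myeloid enhancers on which the other factors act. RUNX1, IKZF1 (Ikaros) and TAL1 belong to the blood-forming programme that yolk-sac precursors of microglia carry into the brain, while MAF, MEF2A and SALL1 are linked to the mature, tissue-adapted state. SALL1, a zinc finger repressor, is held on by TGF-beta signals and keeps genes of resting microglia expressed, but within the young brain it is also made by neural and astroglial progenitors.

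Levels are given as scaled CPM, the count of a gene per 1000000 counts on genes after trimmed-mean scaling of each library for its composition. Since gene lengths of the counted assembly were not used here, levels are compared between groups and never between genes. A gene was called where its Benjamini-Hochberg adjusted p in edgeR's quasi-likelihood test, over all genes tested in that comparison, was under 0.05. Counts on genes per library ranged from 2271834 to 22274367 in microglia and from 3674043 to 19013919 in astrocytes, so that 3 counts correspond to between 0.130 and 1.38 scaled CPM in microglia and between 0.160 and 0.834 in astrocytes. The labels do not say whether replicates came from separate cultures, so p-values measure the spread between these libraries, which may be technical. One library stood apart from its group: Aβ42 fibril-treated microglia replicate 1 differed from the other 2 with a chi-square per degree of freedom of 22.9 and 22.4 over genes, against 7.66 between those. Among control astrocytes, replicate 2 stood apart in the same measure, with 28.3 and 44.3 against 10.7.

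Promoters were read for the members that moved together under Aβ42 fibrils and had an entry among the rat promoter sequences of RefSeq (build GRCr8, which is not the assembly the counts were made on), and for Runx1, which moved the other way in astrocytes. Of the 7 counted members 5 had an entry, and Spi1 and Sall1 had none. The window of Maf, which also fell with Aβ42, was searched in the same way but is not printed here. The 250 bases before the annotated start are printed on the strand of the gene, at chr1:130392163-130392412 (minus strand) for Mef2a, chr14:90468446-90468695 (plus) for Ikzf1, chr5:133824214-133824463 (plus) for Tal1 and chr11:45421326-45421575 (minus) for Runx1. Capitals mark every match, on either strand, to short cores used for these factors: GAGGAA for PU.1, TGTGGT or TGCGGT for RUNX, CACGTG for BHLHE41, CAGATG for TAL1, TGGGAA for IKZF1 and TGCTGA for MAF. No marked match overlaps another kind of core.
Mef2a: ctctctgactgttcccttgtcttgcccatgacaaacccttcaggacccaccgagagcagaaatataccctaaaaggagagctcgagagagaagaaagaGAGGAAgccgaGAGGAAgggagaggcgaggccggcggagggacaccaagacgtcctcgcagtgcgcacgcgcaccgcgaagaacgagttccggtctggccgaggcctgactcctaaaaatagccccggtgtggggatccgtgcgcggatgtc
Ikzf1: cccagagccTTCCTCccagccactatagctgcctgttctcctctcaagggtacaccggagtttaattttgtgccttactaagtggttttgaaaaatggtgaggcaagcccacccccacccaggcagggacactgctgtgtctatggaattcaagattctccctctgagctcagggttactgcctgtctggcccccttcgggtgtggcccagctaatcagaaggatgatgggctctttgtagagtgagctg
Tal1: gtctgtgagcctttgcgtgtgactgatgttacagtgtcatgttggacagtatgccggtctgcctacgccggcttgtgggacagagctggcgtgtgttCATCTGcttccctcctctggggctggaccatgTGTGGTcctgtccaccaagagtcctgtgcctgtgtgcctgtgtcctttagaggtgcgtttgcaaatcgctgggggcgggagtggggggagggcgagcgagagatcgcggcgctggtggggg
Runx1: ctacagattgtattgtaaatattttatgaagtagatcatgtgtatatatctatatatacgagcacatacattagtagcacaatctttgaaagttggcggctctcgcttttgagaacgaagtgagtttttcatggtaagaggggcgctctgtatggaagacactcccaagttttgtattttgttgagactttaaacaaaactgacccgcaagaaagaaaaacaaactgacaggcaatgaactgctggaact
The Mef2a window held the PU.1 core at 2 places, 152 and 141 bases before the start. The Ikzf1 window held it at 1 place, on the opposite strand. The Tal1 window held 1 RUNX core and, on the opposite strand, 1 TAL1 core, and the windows of Runx1 and Maf held none of the cores. These are matches of letters in short windows: among all 33469 promoters of the same length, 23.3% held the PU.1 core, 19.0% a RUNX core, 14% the TAL1 core, 22.1% the IKZF1 core, 15.1% the MAF core and 5.6% the BHLHE41 core.

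In untreated cells, 6 of the 7 factors were higher in microglia than in astrocytes and Sall1 was higher in astrocytes. All 7 passed the test in the fit of all 18 libraries, where 34.2% of 11581 genes were called higher in microglia and 34.5% lower, and in no factor did the 3 libraries of one cell type overlap those of the other. On the scale of that fit, Ikzf1, whose protein Ikaros is a zinc finger regulator of blood lineages, had the widest separation of the 7, at 125 ± 20.4 scaled CPM in microglia and 3.06 ± 0.979 in astrocytes (SD, n = 3 each), a log2 difference of 5.51 (SE 0.26, adjusted p = 6.67e-13). Spi1 stood at 355 ± 6.58 and 16.3 ± 6.79 (log2 4.46, SE 0.21), and Tal1, a basic helix-loop-helix factor of blood precursors, at 47.3 ± 2.70 and 2.84 ± 0.546 (log2 4.14, SE 0.24).

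Runx1, the DNA-binding partner of CBFB, was at 58.3 ± 3.43 in microglia and 5.24 ± 0.995 in astrocytes. Maf, a basic leucine zipper factor of tissue macrophages, was at 195 ± 10.6 and 22.9 ± 4.82, and Mef2a, a MADS-box factor found in many tissues, at 176 ± 11.2 and 33.9 ± 14. These 3 also passed, with log2 differences of 3.54, 3.07 and 2.41. Sall1 went the other way, with 55.6 ± 2.47 in microglia and 202 ± 15.1 in astrocytes (log2 fell by 1.86 from astrocytes to microglia, SE 0.12, adjusted p = 5.55e-11).

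**Figure D1:**
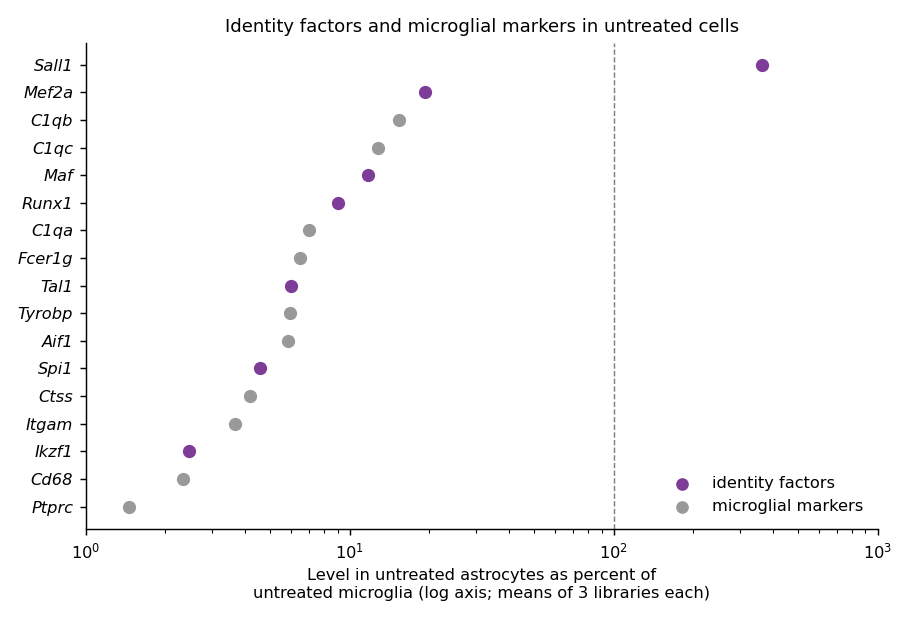
Level in untreated astrocytes as a percent of the level in untreated microglia (log axis, means of 3 libraries each) for the 7 counted factors (purple) and 10 microglial marker genes (grey); the dashed line marks equal levels. Sall1 alone lies to the right of the line, at 364%, and the other 6 factors lie between 2.45% and 19.2%, over a range like that of the markers, 1.46% to 15.4%.

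The astrocyte cultures also held RNA of genes that mark microglia. The summed level of 10 microglia and macrophage markers (Aif1, Itgam, Cd68, Tyrobp, C1qa, C1qb, C1qc, Ptprc, Fcer1g and Ctss, all 10 detected in both cell types) was 9159 to 10721 scaled CPM in control microglia and 445 to 548 in control astrocytes, which is 4.93% of the microglial level. Taken 1 by 1, the markers in astrocytes stood at 1.46% to 15.4% of microglia, with a median of 5.88%, and Spi1 (4.58%), Tal1 (6.01%), Ikzf1 (2.45%), Runx1 (9.0%) and Maf (11.8%) fell within that range, whereas Mef2a (19.2%) and Sall1 (364%) lay above it. The 9 astrocyte markers summed to 8048 to 9747 scaled CPM in control astrocytes and to 225 to 258 in control microglia. Oligodendrocyte lineage markers were present in both, with sums of 2169 to 2421 in control microglia and 1618 to 2418 in control astrocytes. Markers of further cell types were present too. The perivascular and blood macrophage markers (7 of 8 in the tables) summed to 1169 to 1274 in control microglia and 18.3 to 21.8 in control astrocytes, the 6 neuron markers to 557 to 624 and 160 to 238, the 7 endothelial markers to 207 to 214 and 18.3 to 20.4, and the 6 pericyte and fibroblast markers to 51.2 to 65.6 and 119 to 157. The erythroid markers (4 of 6 in the tables) summed to 0.216 to 0.524 and 0.650 to 1.83. Within those lists, Cldn5 (endothelial), Cd163 (perivascular macrophage), Hbb and Alas2 (erythroid) were at 0 in all 6 groups. The part of such cells in the levels of the factors was not tested. In bulk RNA of this kind, fewer cells of a type and less RNA per cell cannot be told apart.

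Most of the factors were called lower in microglia after fibrils, and none was called higher. After Aβ42 fibrils 5 of the 7 fell (Ikzf1, Mef2a, Maf, Sall1 and Tal1), beside 26.6% of the 10837 genes tested that were called lower and 27.1% called higher. After Aβ40 fibrils 4 fell (Ikzf1, Maf, Tal1 and Spi1), beside 21.4% called lower and 19.6% higher. No factor was called higher by edgeR in either comparison, at an adjusted or an unadjusted p under 0.05, and the count by DESeq2's Wald test was also 0. The median log2 change of the 7 was -0.69 under Aβ42 and -0.47 under Aβ40, where the medians over all genes tested were 0.01 and 0.01. Both comparisons share the 3 control libraries.

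**Figure D2:**
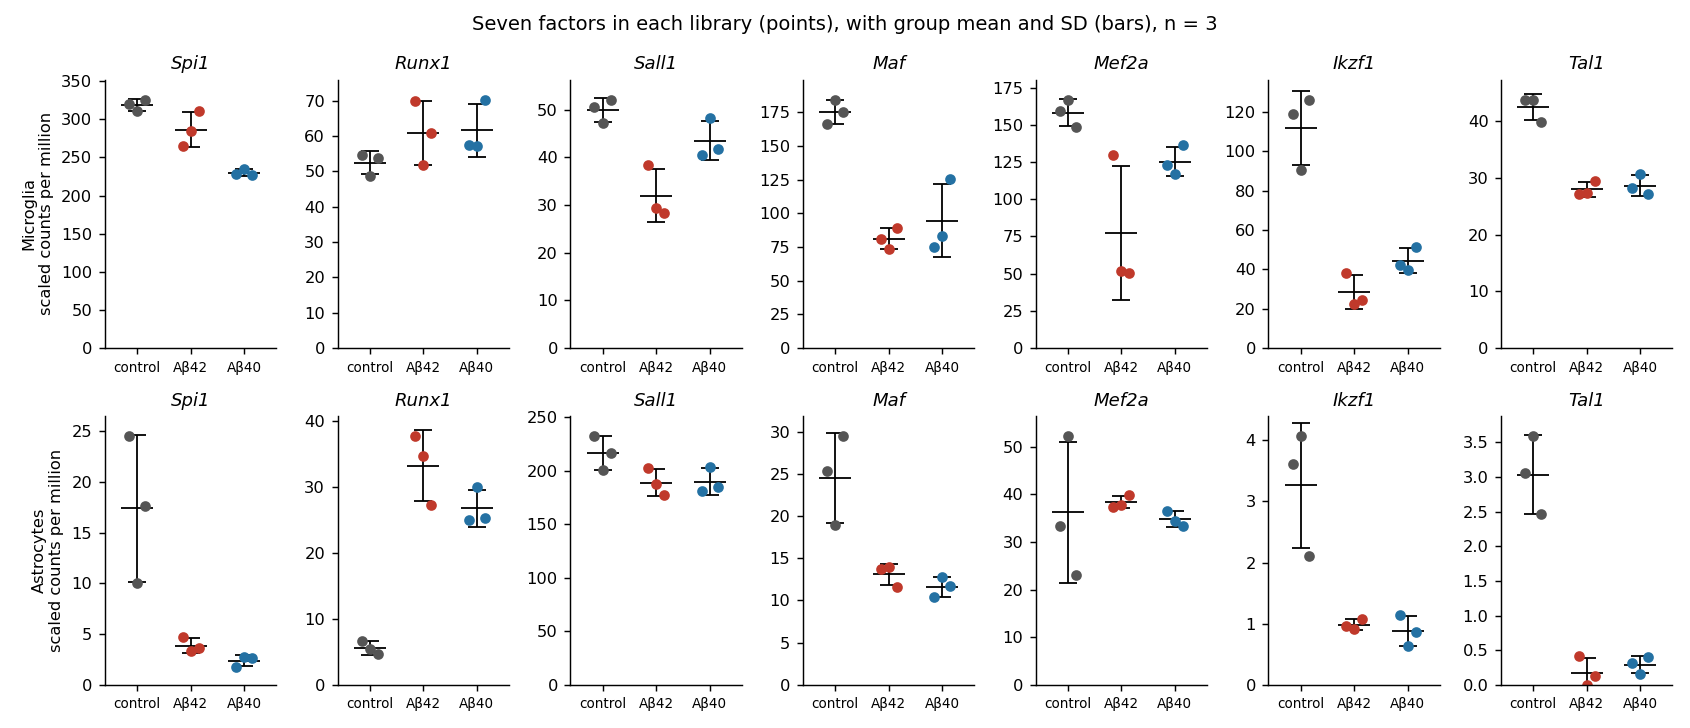
Scaled CPM of the 7 factors in each library (points, linear axes from 0, each panel on its own scale) for control, Aβ42 and Aβ40 groups of microglia (upper row) and astrocytes (lower row); the long bar is the mean and the whiskers the SD of 3 libraries. In microglia the Ikzf1, Maf and Tal1 libraries of both fibril groups lie below all controls, while in astrocytes Runx1 rises from between 4.64 and 6.68 to between 25.04 and 37.7.

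Ikzf1 showed the largest drop of the 7 under either fibril. It was at 119, 90.7 and 126 scaled CPM in control microglia, at 38.3, 22.4 and 24.4 after Aβ42 fibrils and at 42.4, 39.5 and 51.4 after Aβ40 fibrils. All treated libraries were below all controls. Its log2 change was -2.07 (SE 0.20, adjusted p = 2.86e-06) with Aβ42 and -1.35 (SE 0.20, adjusted p = 1.33e-04) with Aβ40.

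Maf fell by a similar amount with both. Its controls were at 167, 184 and 175 scaled CPM, the Aβ42 libraries at 80.7, 73.7 and 89.4, and the Aβ40 libraries at 74.96, 83.1 and 125. Aβ40 replicate 3 was the highest of the treated libraries and still below every control. On the log2 scale the change was -1.11 (SE 0.16, adjusted p = 1.27e-04) with Aβ42 and -0.91 (SE 0.17, adjusted p = 8.26e-04) with Aβ40.

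Tal1, which acts in a complex with LMO2 and LDB1, fell with both fibrils. It went from 43.8, 43.8 and 39.9 scaled CPM in the controls to 27.2, 27.3 and 29.4 with Aβ42 and 28.2, 30.6 and 27.1 with Aβ40. Treated and control libraries did not overlap. The log2 changes were -0.60 (SE 0.11, adjusted p = 7.27e-04) and -0.56 (SE 0.12, adjusted p = 0.00216).

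Mef2a and Sall1 passed the test only under Aβ42 fibrils. Mef2a was at 159, 167 and 149 scaled CPM in the controls, at 129, 51.9 and 50.4 with Aβ42 and at 123, 117 and 136 with Aβ40. The Aβ42 library that stood apart, replicate 1, was also far from the other 2 here and close to the Aβ40 libraries, although all 6 treated libraries were below the controls. The log2 change was -1.11 with Aβ42 (SE 0.28, adjusted p = 0.00578) and -0.34 with Aβ40 (SE 0.28, adjusted p = 0.365); without Aβ42 replicate 1 the former was -1.63. When only the 6 libraries of the Aβ40 comparison were fitted, the Aβ40 difference also passed (log2 -0.34, adjusted p = 0.00351).

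Sall1 was at 50.6, 47.3 and 52.1 scaled CPM in control microglia, at 38.3, 29.4 and 28.2 after Aβ42 fibrils and at 40.5, 48.3 and 41.8 after Aβ40 fibrils. The Aβ42 libraries were all below the controls, and the Aβ40 libraries overlapped them. The log2 change was -0.69 (SE 0.13, adjusted p = 0.00104) with Aβ42 and -0.20 (SE 0.14, adjusted p = 0.280) with Aβ40.

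Spi1, which encodes PU.1, passed the test only with Aβ40 fibrils. It was at 320, 311 and 326 scaled CPM in the controls, at 265, 284 and 311 with Aβ42 and at 228, 235 and 226 with Aβ40. The Aβ42 library nearest to the controls was at 310.7, just under the lowest control at 310.8. The log2 change was -0.15 with Aβ42 (SE 0.09, adjusted p = 0.188) and -0.47 with Aβ40 (SE 0.09, adjusted p = 0.00162), the latter a decrease to 0.721 of the control level.

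Runx1 passed in neither microglial comparison. Its 3 libraries were at 54.7, 48.6 and 53.8 scaled CPM in the controls, at 69.9, 51.7 and 60.8 with Aβ42 and at 57.4, 57.2 and 70.3 with Aβ40. The Aβ42 libraries overlapped the controls, and those of Aβ40 were above them. The log2 differences were 0.19 (95% confidence interval -0.10 to 0.48, adjusted p = 0.240) and 0.22 (-0.08 to 0.52, adjusted p = 0.225).

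The summed level of the microglial markers also differed between the groups. It was 9159 to 10721 scaled CPM in control microglia, 3636 to 5756 after Aβ42 fibrils and 4913 to 5698 after Aβ40 fibrils, which is 2.14-fold and 1.89-fold lower. The 10 markers did not move alike. With Aβ42, 7 were called lower, 1 higher and 2 neither, beside 26.6% of all genes lower and 27.1% higher. With Aβ40 it was 8, 1 and 1, beside 21.4% and 19.6%. Itgam was the 1 called higher (log2 0.90 and 1.04), while C1qa was among those that fell (log2 -3.97 and -4.23). Ratios to the sum therefore depend on which markers it holds. Per 1000 scaled counts of these 10 markers, Spi1 was at 36.5 ± 2.45 in the controls, 74.0 ± 20.7 with Aβ42 and 49.6 ± 5.17 with Aβ40 (SD, n = 3). On the same ratio Maf was at 20.1 ± 2.27, 20.7 ± 4.70 and 20.04 ± 3.74, and Ikzf1 at 12.7 ± 1.52, 6.93 ± 0.391 and 9.52 ± 0.485. Mef2a had means of 18.2, 18.1 and 26.9. The means of Sall1 (5.71, 7.999 and 9.41), Tal1 (4.88, 7.18 and 6.197) and Runx1 (5.98, 15.2 and 13.2) were higher with both fibrils. For Tal1 the treated libraries overlapped the controls on this ratio. Of the 7 factors, only Ikzf1 had lower means on it with both fibrils. Sums of other marker lists in microglia differed as well, from the controls to Aβ42 and Aβ40 in turn: perivascular and blood macrophage markers were at 1169 to 1274, 454 to 644 and 399 to 437 scaled CPM, and endothelial markers at 207 to 214, 56.0 to 74.2 and 108 to 132. Within the perivascular and blood macrophage list the 5 tested genes split. Pf4, F13a1 and Ms4a7 were called higher with both fibrils. Mrc1 was called lower with both (log2 -3.90 and -3.56), and Lyve1 only with Aβ42. Among 6 tested endothelial markers 1 was called higher and 3 lower with Aβ42, and 1 higher and 2 lower with Aβ40. Given the shares over all genes, nothing is read from these counts. The sum of the pericyte and fibroblast markers was higher after treatment, at 51.2 to 65.6, 147 to 174 and 133 to 136. The tested genes of that list split as well. Dcn (log2 7.11 and 6.998) and Lum (log2 2.43 and 2.26) were called higher with both fibrils, and Col1a1 only with Aβ42. Pdgfrb was called lower with both (log2 -1.45 and -1.25). Neuron markers were at 557 to 624, 521 to 724 and 827 to 871, oligodendrocyte lineage markers at 2169 to 2421, 2380 to 3214 and 2427 to 2979, astrocyte markers at 225 to 258, 184 to 209 and 233 to 248, and erythroid markers were under 1 in all libraries. The part of these shifts in the values of the factors was not tested.

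**Figure D3:**
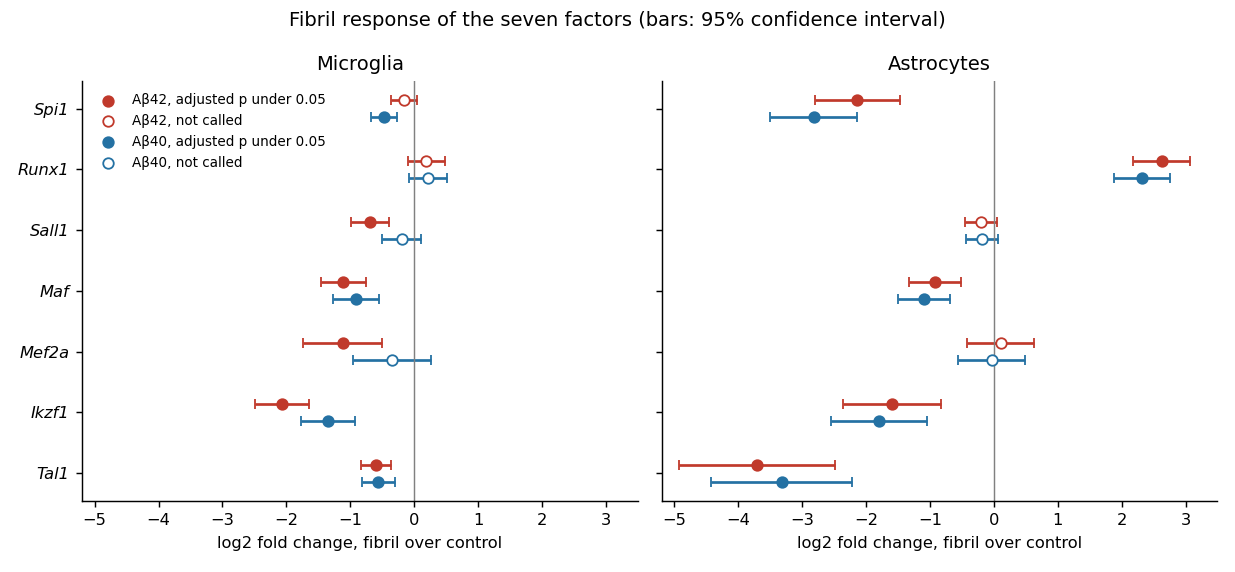
Log2 fold change of each factor, fibril over control, in microglia (left) and astrocytes (right), with 95% confidence intervals from edgeR fits of 9 libraries per cell type; filled points had an adjusted p under 0.05. In microglia 5 points (Aβ42, red) and 4 points (Aβ40, blue) are filled and lie left of 0; in astrocytes Runx1 lies right of 0 at 2.63 and 2.32, and Spi1, Maf, Ikzf1 and Tal1 lie left of 0 with both fibrils.

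The direct comparison of the fibrils in microglia called 3 of the 7 factors, beside 11.3% of all genes higher and 9.01% lower with Aβ42 than with Aβ40. Spi1 was higher with Aβ42 (log2 0.32, SE 0.09, adjusted p = 0.0376), while Sall1 (log2 -0.49, SE 0.14, adjusted p = 0.0348) and Ikzf1 (log2 -0.72, SE 0.20, adjusted p = 0.0348) were lower with Aβ42. In each of the 3 the Aβ42 and Aβ40 libraries did not overlap. Mef2a missed the threshold (log2 -0.77, SE 0.29, adjusted p = 0.0719). Maf (95% confidence interval of the log2 difference -0.56 to 0.17), Runx1 (-0.33 to 0.27) and Tal1 (-0.29 to 0.22) had intervals that spanned 0.

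These calls depended on single libraries, as did the count over all 10837 genes, which was 2198 with all libraries, 6004 without Aβ42 replicate 1 and 99 to 154 without 1 of the other 5. Of the factors, without Aβ42 replicate 1 the count was 4, with Mef2a added (log2 -1.28, adjusted p = 1.07e-07), and without any 1 of the other 5 libraries (Aβ42 replicates 2 and 3 and Aβ40 replicates 1, 2 and 3) it was 0. With only the 6 libraries of the 2 fibril groups in the fit it was also 0, beside 106 of all genes, with adjusted p of 0.0921 for Spi1, 0.0903 for Sall1 and 0.0815 for Ikzf1. Over these settings the log2 values of the 3 called factors kept their sign.

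**Figure D4:**
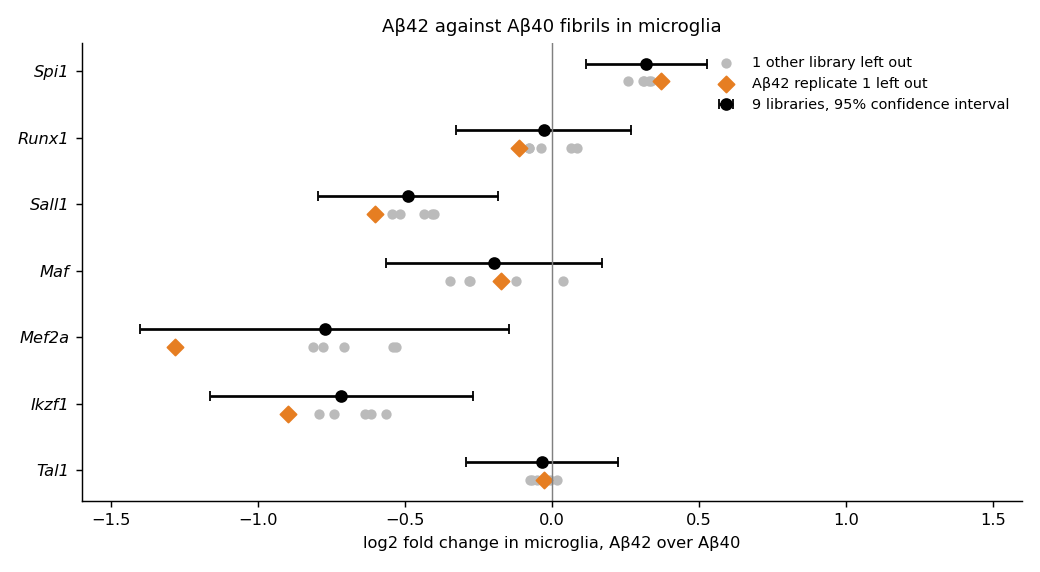
Log2 difference between Aβ42 and Aβ40 fibril-treated microglia for each factor: black points with 95% confidence intervals come from all 9 microglial libraries, orange diamonds from the fit without Aβ42 replicate 1, and grey points from fits without 1 of the other 5 fibril libraries. Ikzf1, Sall1 and Mef2a stay left of 0 and Spi1 right of 0 in all of these fits, and Mef2a moves from -0.77 to -1.28 without Aβ42 replicate 1.

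In the astrocyte cultures Runx1 was called higher, and Spi1, Maf, Ikzf1 and Tal1 lower, after either fibril. With Aβ42, 1 factor was called higher, beside 16.5% of the 11690 genes tested, and 4 lower, beside 20.4%. With Aβ40, again 1 was called higher, beside 14.9%, and 4 lower, beside 18.4%. The median log2 change of the 7 was -0.92 and -1.09, and over all genes -0.00 and 0.00. Both comparisons share the 3 control libraries.

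Runx1 was at 6.68, 5.50 and 4.64 scaled CPM in control astrocytes, at 37.7, 34.8 and 27.3 after Aβ42 fibrils and at 25.04, 30.0 and 25.4 after Aβ40 fibrils. Every treated library was above every control, and the smallest treated value was 25.04 against a largest control of 6.68. The log2 change was 2.63 (SE 0.20, adjusted p = 2.16e-06), a 6.18-fold rise, with Aβ42 and 2.32 (SE 0.20, adjusted p = 6.24e-06), 4.98-fold, with Aβ40. In Aβ42 fibril-treated astrocytes its counts were 550, 344 and 227, well above the detection limit of 3 counts.

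Spi1 in astrocytes was at 24.5, 10.05 and 17.6 scaled CPM in the controls, at 4.67, 3.33 and 3.60 with Aβ42 and at 1.77, 2.73 and 2.66 with Aβ40. The controls differed among themselves by more than 2-fold and did not overlap the treated libraries. The log2 change was -2.14 (SE 0.30, adjusted p = 2.17e-04) and -2.82 (SE 0.31, adjusted p = 3.79e-05).

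Maf was at 25.3, 18.9 and 29.5 scaled CPM in control astrocytes, at 13.7, 13.9 and 11.6 with Aβ42 and at 10.4, 12.8 and 11.7 with Aβ40. Its log2 changes of -0.92 (SE 0.18, adjusted p = 0.00227) and -1.09 (SE 0.18, adjusted p = 8.17e-04) were close in size to those in microglia. Ikzf1 was low in these cells, at 3.26 ± 1.02 scaled CPM in the controls, 0.984 ± 0.0878 with Aβ42 and 0.882 ± 0.251 with Aβ40 (SD, n = 3), from 13 to 30 counts per control library and 9 to 14 per treated library. It fell by 1.59 (SE 0.35, adjusted p = 0.00401) and 1.80 (SE 0.34, adjusted p = 0.00185) on the log2 scale.

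Tal1 in astrocytes lay close to the detection limit. It had 11, 15 and 35 counts in the controls, 6, 0 and 1 with Aβ42 and 3, 3 and 6 with Aβ40, or 3.04 ± 0.565, 0.177 ± 0.212 and 0.290 ± 0.120 scaled CPM. The treated libraries were below the controls in both comparisons (log2 -3.71, SE 0.55, adjusted p = 3.33e-04, and log2 -3.32, SE 0.50, adjusted p = 3.81e-04), and the sizes rest on those few counts: without Aβ42 replicate 1, which held 6 of the 7 counts, the fitted log2 value was -5.43 and rests on 1 count.

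Sall1 and Mef2a were not called in astrocytes. Sall1 was at 232, 200.4 and 217 scaled CPM in the controls, 202, 187 and 177 with Aβ42 and 181, 204 and 184 with Aβ40, with log2 differences of -0.20 (95% confidence interval -0.45 to 0.06) and -0.19 (-0.44 to 0.06). Mef2a was at 33.4, 52.1 and 23.1 in the controls, 37.4, 37.7 and 39.7 with Aβ42 and 36.6, 34.4 and 33.3 with Aβ40. The control libraries of Mef2a surrounded all the treated ones, and without control replicate 2, which stood apart, the Aβ42 difference was 0.50 and passed (adjusted p = 0.0162).

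The summed microglial markers were lower in fibril-treated astrocytes as well, at 445 to 548 scaled CPM in the controls, 95.2 to 118 with Aβ42 and 66.0 to 75.8 with Aβ40. That is a log2 difference of -2.18 and -2.78, beside -2.14 and -2.82 for Spi1. Per 1000 scaled counts of the 10 markers, Spi1 stood at 33.2 ± 11.1 in control astrocytes, 34.4 ± 4.07 with Aβ42 and 31.9 ± 5.57 with Aβ40 (SD, n = 3). Control microglia were near these, at 36.5 ± 2.45. Microglia treated with the same fibrils were higher, at 74.0 ± 20.7 with Aβ42 and 49.6 ± 5.17 with Aβ40. Runx1 on the same ratio was at 10.8 ± 1.03, 295 ± 17.9 and 361 ± 11.6, far above its 5.98 ± 0.452 in control microglia and 15.2 ± 1.68 in Aβ42 fibril-treated microglia. In control, Aβ42 and Aβ40 fibril-treated astrocytes in turn, Maf on this ratio was at 47.9 ± 11.7, 117 ± 7.62 and 156 ± 4.696. Ikzf1 was at 6.33 ± 2.02, 8.89 ± 1.77 and 12.1 ± 4.36. Tal1 was at 5.93 ± 1.29, 1.497 ± 1.66 and 3.99 ± 1.802. Treated libraries overlapped the controls for Ikzf1 with both fibrils and for Tal1 with Aβ40. The means of Sall1 (421, 1689 and 2557) and Mef2a (71.01, 345 and 471) were higher with both fibrils. The part of the microglial markers in the astrocyte values was not tested. The astrocyte markers summed to 8048 to 9747 in the controls, 5228 to 5599 with Aβ42 and 5791 to 6250 with Aβ40. In the same order, perivascular and blood macrophage markers were at 18.3 to 21.8, 5.47 to 6.80 and 4.25 to 6.18, oligodendrocyte lineage markers at 1618 to 2418, 1223 to 1287 and 1267 to 1306, and neuron markers at 160 to 238, 93.2 to 98.4 and 95.5 to 101. Endothelial markers were at 18.3 to 20.4, 14.6 to 16.0 and 15.1 to 17.3, and pericyte and fibroblast markers at 119 to 157, 151 to 188 and 171 to 201.

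Between Aβ42 and Aβ40 fibril-treated astrocytes edgeR called 0 of the 7 factors, at an adjusted as at an unadjusted p under 0.05, and DESeq2 also called 0, where 0.0855% of all genes were called by edgeR in either direction. The widest differences among the 7 were in Spi1 (log2 0.68, 95% confidence interval -0.04 to 1.40) and Tal1 (-0.39, -2.06 to 1.29).

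The responses of the cell types were compared directly, as the fibril change in microglia minus that in astrocytes, in the fit of 18 libraries. For Aβ42 fibrils, 2 factors were called higher on this difference, Spi1 and Tal1, beside 19.3% of the 11581 genes tested, and 3 lower, Runx1, Sall1 and Mef2a, beside 17.9%. For Aβ40 fibrils, Spi1 and Tal1 were again called higher, beside 16.0% of all genes, and Runx1 lower, beside 16.5%. For Runx1 the difference was -2.44 (SE 0.23, adjusted p = 1.65e-07) and -2.12 (SE 0.24, adjusted p = 1.30e-06) on the log2 scale. Maf and Ikzf1 were not called for either fibril: for Maf the log2 difference of responses was -0.19 (95% confidence interval -0.71 to 0.33) with Aβ42 and 0.17 (-0.35 to 0.69) with Aβ40, and for Ikzf1 it was -0.49 (-1.40 to 0.41) and 0.41 (-0.41 to 1.24). The calls of Sall1 and Mef2a for Aβ42 were lost in some settings, and their values there follow in the closing part.

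Several lists of genes around the factors were followed in microglia. Of 14 tested paralogs, 4 rose and 7 fell with Aβ42, beside 27.1% and 26.6% of all genes. With Aβ40, 3 rose and 7 fell, beside 19.6% and 21.4%. Rises were about as frequent as over all genes, so nothing is read from their number. The median log2 changes of the list were -0.43 and -0.24. Maff, a small MAF protein without an activation domain, rose from 19.2 ± 1.59 scaled CPM to 247 ± 22.1 with Aβ42 and 152 ± 10.9 with Aβ40 (log2 3.68, SE 0.12, adjusted p = 7.00e-10, and log2 2.98, SE 0.12, adjusted p = 3.18e-09), opposite in direction to Maf itself. Spib, the ETS paralog of Spi1, had 0 to 2 counts in the control libraries and reached 4.57 ± 1.25 and 4.29 ± 1.02 scaled CPM (adjusted p = 3.20e-06 and 2.62e-05), with no fold given against such low counts. Lyl1, the paralog of Tal1, fell from 86.0 ± 8.23 to 23.3 ± 1.81 and 13.2 ± 2.93 (log2 -1.87 and -2.66), and Spic, another ETS paralog, fell from 4.02 ± 1.09 to 0.838 ± 0.660 with Aβ42 (log2 -2.89, adjusted p = 1.24e-04).

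Among 13 tested cofactors 1 rose and 8 fell with Aβ42, beside 27.1% and 26.6% of all genes. With Aβ40, 0 rose and 5 fell in edgeR, beside 19.6% and 21.4% (1 was higher at an unadjusted p under 0.05 and 0 by DESeq2). The medians were -0.47 and -0.17. Hdac9, a class IIa deacetylase that MEF2 factors recruit, fell from 71.4 ± 4.38 scaled CPM to 9.15 ± 1.83 with Aβ42 and 23.4 ± 3.92 with Aβ40 (log2 -3.05, SE 0.16, adjusted p = 1.31e-08, and -1.58, SE 0.15, adjusted p = 3.88e-06). Fli1, an ETS factor found with TAL1 and RUNX1 on blood enhancers, fell from 162 ± 19.2 to 40.8 ± 21.4 and 67.2 ± 10.7 (log2 -2.11 and -1.28). Rbbp7, a histone-binding subunit of the NuRD complex that SALL1 and IKZF1 recruit, fell from 478 ± 33.4 to 248 ± 13.1 with Aβ42 (log2 -0.95), and Ldb1, which bridges TAL1 complexes, from 179 ± 10.9 to 94.99 ± 4.88 with Aβ40 (log2 -0.92).

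The 24 myeloid genes with known PU.1 sites split in direction. With Aβ42, 9 were higher and 11 lower, beside 27.1% and 26.6% of all genes. With Aβ40, 6 were higher and 13 lower, beside 19.6% and 21.4% (medians -0.31 and -0.48). Csf1r, the receptor for CSF1 and IL-34 that microglia need to survive, fell from 2491 ± 222 scaled CPM to 170 ± 21.7 and 166 ± 12.6 (log2 -3.87, SE 0.13, adjusted p = 7.58e-10, and -3.90, SE 0.13, adjusted p = 1.16e-09). Csf3r, the receptor for granulocyte colony-stimulating factor, fell from 48.8 ± 4.99 to 1.25 ± 0.389 and 3.14 ± 1.45 (log2 -5.09 and -4.07). Cybb, a subunit of the phagocyte NADPH oxidase, fell with Aβ42 from 678 ± 34.8 to 111 ± 19.9 (log2 -2.63), and the lysosomal protease gene Ctss with Aβ40 from 760 ± 93.7 to 159 ± 5.86 (log2 -2.26). The log2 differences of Spi1 itself were -0.15 and -0.47. Some genes of this list, Ctss among them, are also in the sum of microglial markers.

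Of the 12 listed homeostatic genes that depend on SALL1, 10 were tested. With Aβ42, 1 was higher and 8 were lower, beside 27.1% and 26.6% of all genes. With Aβ40, 1 was higher and 9 were lower, beside 19.6% and 21.4%. The medians were -3.29 and -3.62. Gpr34, a lysophosphatidylserine receptor of resting microglia, fell from 139 ± 8.64 scaled CPM to 0.491 ± 0.272 and 0.381 ± 0.479 (adjusted p = 4.69e-10 and 1.30e-09). The fractalkine receptor Cx3cr1 fell from 36.7 ± 6.18 to 0.300 ± 0.0926 and 0.235 ± 0.241, and the purinergic receptor P2ry13 from 21.9 ± 4.36 to 0.210 ± 0.174 and 0.308 ± 0.131. In the Aβ40 group these 3 had at most 2 counts in a library, so their folds are not fixed, and the list's median was the same with such genes set to the level of 3 counts. The log2 differences of Sall1 itself were -0.69 and -0.20. Csf1r is on this list, on the list of PU.1-site genes and on that of upstream signals, so the lists are not independent.

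Upstream signals were divided. Of 11 tested genes 3 rose and 4 fell with Aβ42, beside 27.1% and 26.6% of all genes, the rises being near that share. With Aβ40, 4 rose and 5 fell, beside 19.6% and 21.4% (medians 0.06 and -0.14). Tgfbr1, the type I receptor of TGF-beta, fell from 324 ± 37.0 scaled CPM to 68.6 ± 22.5 and 101 ± 11.4 (log2 -2.29, SE 0.19, adjusted p = 1.11e-06, and -1.68, SE 0.19, adjusted p = 1.74e-05). Il34, the neuronal ligand of CSF1R, had 1 to 3 counts in each control library and 2.08 ± 0.611 and 2.08 ± 0.657 scaled CPM after treatment (adjusted p = 2.73e-04 and 0.00152).

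Clock genes, listed since BHLHE41 belongs to the circadian feedback loop, were called about as often as all genes, so nothing is read from their counts. Of 14 tested, 3 rose and 3 fell with Aβ42, beside 27.1% and 26.6% of all genes, and 2 rose and 4 fell with Aβ40, beside 19.6% and 21.4% (medians 0.19 and 0.03). With Aβ42, Nfil3 rose (log2 0.78, SE 0.13) and Per3 and Arntl fell (log2 -0.71, SE 0.15, and -0.66, SE 0.11). With Aβ40, Npas2 rose (log2 0.95, SE 0.28) and Nr1d2 and Per3 fell (log2 -0.61, SE 0.13, and -0.57, SE 0.17).

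**Figure D5:**
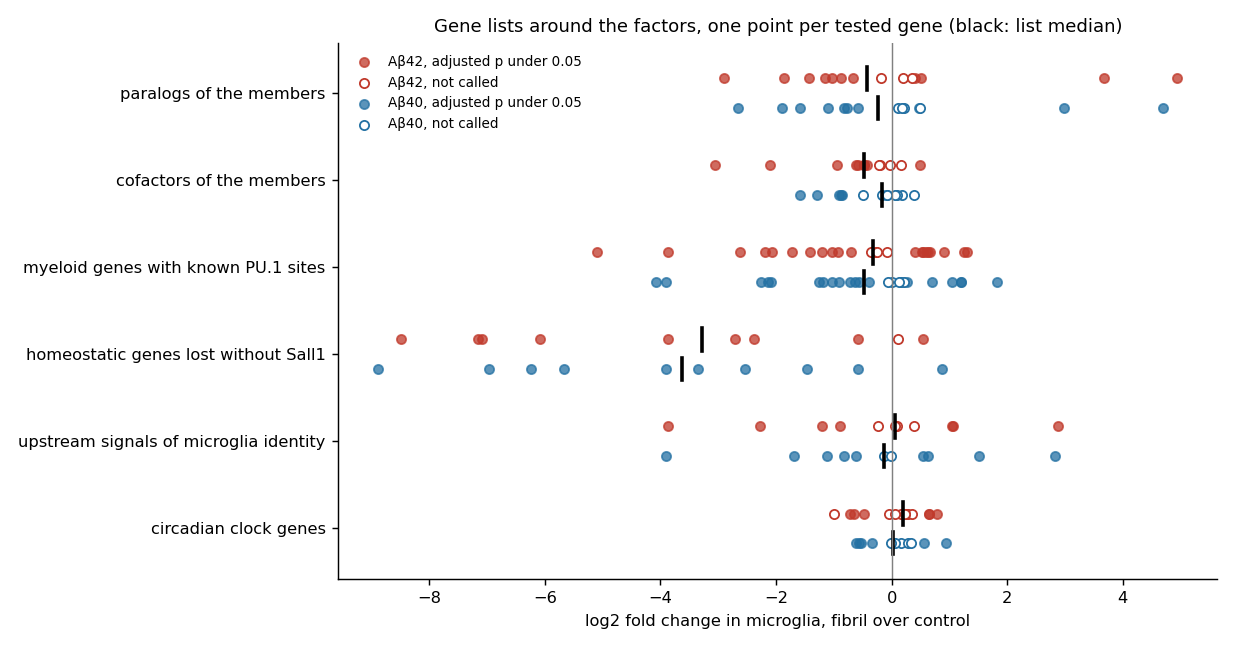
Log2 fold change in microglia, fibril over control, for every tested gene of 6 lists (Aβ42 red, Aβ40 blue; filled points had an adjusted p under 0.05; black bars are list medians). The homeostatic genes lie farthest to the left, with medians of -3.29 and -3.62, while the clock genes lie near 0, with medians of 0.19 and 0.03.

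The same lists were counted in astrocytes. Over all genes tested there, 16.5% were called higher and 20.4% lower with Aβ42, and 14.9% and 18.4% with Aβ40. Nothing is read from counts near those shares. Of 13 tested paralogs 4 rose and 2 fell with Aβ42 and 4 rose and 3 fell with Aβ40. Of 15 tested cofactors 1 rose and 3 fell with each fibril, the falls about as frequent as over all genes. The 1 that rose was Lmo2, the LIM-domain bridge of TAL1 complexes, named after its values were seen (log2 3.07, adjusted p = 4.31e-08, and 2.37, adjusted p = 2.88e-07). The PU.1-site genes numbered 1 higher and 19 lower of 24 with Aβ42 and 0 higher and 21 lower with Aβ40 (medians -1.77 and -2.13), where the 0 was also found at an unadjusted p under 0.05 and by DESeq2. Of the 10 microglial markers, whose sum was lower after treatment, 5 are on that list. Of 9 tested homeostatic genes 1 rose and 7 fell with Aβ42 and 1 rose and 6 fell with Aβ40 (medians -3.52 and -2.63, the former -3.04 with genes at or under 3 counts in every library of a group set to that level). Of 11 tested upstream signals 3 rose and 3 fell with Aβ42 and 4 rose and 3 fell with Aβ40 (medians 0.23 and 0.25), and of 14 clock genes 3 rose and 1 fell, and 3 rose and 3 fell (medians 0.16 and 0.05).

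The genes whose pattern over the 6 group means was most like each factor were found by the root mean square difference of centred log2 levels, among 11580 genes. Nearest to Spi1 were Fermt3, an integrin activator of blood cells (0.20), and Fcgr1a, the high-affinity IgG receptor (0.23). Nearest to Ikzf1 were Lilra5 (0.18) and Klra1 (0.18), nearest to Maf were Kcnk1 (0.20) and Lpxn (0.23), and nearest to Tal1 were Fmnl1 (0.17) and Adcy7 (0.23). Mef2a was closest to Fcho2 (0.11) and Zeb2 (0.12), and Sall1 to Cby1 (0.06) and Spata7 (0.08). Runx1 had the most distant neighbours, RT1-CE10 (0.25) and Nceh1 (0.27). Lilra5, Klra1 and RT1-CE10 belong to families of similar genes, so their counts are uncertain where reads could fit several copies.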

How the data were processed

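RNA of cultured rat microglia and astrocytes (poly(A)-selected, stranded libraries, paired reads) was sequenced in 18 libraries, 3 per group, and groups were taken from the sample labels. The authors aligned the reads to the rat assembly rn5 with STAR and counted them per gene before the files were deposited. The deposited values are whole-number counts per gene symbol, not normalized, with 1 table per library. Per the labels' processing notes Salmon and DESeq2 were also used, and their versions are not given in the sources used here. Whether the counting used strand is not stated, so reads of overlapping antisense genes cannot be told apart. Counts outside genes were 21.4% to 24.2% of a microglial table and 25.7% to 34.0% of an astrocyte table and were left out of library sizes and tests.

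Counts were analysed in edgeR 4.0.16 (R 4.3.3, limma 3.58.1) by the quasi-likelihood test after TMM scaling and edgeR's expression filter, over 10837 genes in 9 microglial libraries, 11690 in 9 astrocyte libraries and 11581 in a fit of all 18, the last over the 16704 symbols that both sets of tables hold. This shared fit gave the cell type comparison and the differences of response. P-values were adjusted by Benjamini-Hochberg over all genes of a fit and called at 0.05. All 7 counted members passed the filter in each fit. Scripts were tested on simulated data. Intervals are 95% confidence intervals of the fit, and the limit of 3 counts covers counting error only. With 3 libraries a group, an exact permutation test on 1 gene cannot give a two-sided p below 0.1, so none was run. No pair of libraries agreed within sampling noise.

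Members, gene lists and tests were chosen with earlier results of these data known. Named genes were the members, the 3 genes with the largest absolute log2 change among those called per list and microglial comparison, and the 2 genes nearest in pattern to each member, which were found on log2(scaled CPM + 0.5). Alternatives were DESeq2 size factors, library totals, other count filters, DESeq2 1.42.0, a replicate block, fits of only the 2 groups compared, a 5-fold threshold, an unadjusted p, and each library left out in turn.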

Additional observations from a re-analysis of the deposited data

Results flagged for a closer look

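Fibril responses that differed between the cell types are given as the log2 change in microglia minus that in astrocytes, tested as an interaction in the edgeR fit of 18 libraries with Benjamini-Hochberg adjustment. With Aβ42 fibrils 5 of the 7 factors differed, beside 37.3% of the 11581 genes tested. Spi1 differed by 1.98 (SE 0.29, adjusted p = 2.83e-05), since it was lower by more in the astrocyte cultures. Tal1 differed by 3.08 (SE 0.48, adjusted p = 6.14e-05), with 6, 0 and 1 counts in the treated astrocyte libraries; without the first of these, Aβ42 fibril-treated astrocytes replicate 1, the value was 4.76. Runx1 differed by -2.44 (SE 0.23, adjusted p = 1.65e-07), with all 3 treated astrocyte libraries above the controls and the microglial ones overlapping. Sall1 differed by -0.49 (SE 0.17, adjusted p = 0.0267) and Mef2a by -1.22 (SE 0.40, adjusted p = 0.0205).

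With Aβ40 fibrils 3 of the 7 differed, beside 32.5% of all genes, so nothing is read from that number. They were Spi1 by 2.32 (SE 0.30, adjusted p = 6.23e-06), Tal1 by 2.72 (SE 0.44, adjusted p = 8.72e-05) and Runx1 by -2.12 (SE 0.24, adjusted p = 1.30e-06). Beside these values, the summed microglial markers were 4.53-fold and 6.87-fold lower in Aβ42 and Aβ40 fibril-treated astrocytes than in their controls, and 2.14-fold and 1.89-fold lower in treated microglia. Their part in the differences was not tested.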

How the results depend on the processing

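Of 995 values of single factors under the alternatives, 918 kept their direction and their side of the threshold, and 20 changed sign, all of them differences that had not been called. The cause was not tested for any of the changes below. A 5-fold threshold, which left 678, 632 and 0 of all genes in the microglial comparisons, left 0 of the 5, 4 and 3 calls in the microglial comparisons (Aβ42, Aβ40, and Aβ42 against Aβ40), 2 of 5 in each astrocyte comparison with controls and 2 of 5 for the Aβ42 response difference. Requiring 10 counts in every library left 3 and 3 calls in astrocytes, since Ikzf1 and Tal1 were then not tested. In the fit of only the 2 fibril groups of microglia 0 of the 3 calls remained. Leaving out 1 library gave 0 to 4 calls for Aβ42 against Aβ40 in microglia, 5 to 6 for Aβ42 in astrocytes and 3 to 5 for the Aβ42 response difference. There the calls of Sall1 were lost without microglia control replicate 1 or 3, Aβ42 fibril-treated microglia replicate 2 or 3, or Aβ42 fibril-treated astrocytes replicate 1 (log2 -0.42 to -0.48, adjusted p = 0.0551 to 0.0828) and with DESeq2 size factors (-0.43, adjusted p = 0.0577). Those of Mef2a were lost without Aβ42 fibril-treated microglia replicate 2 or 3 or astrocyte control replicate 1 or 3 (-0.95 to -1.13, adjusted p = 0.0601 to 0.0637). Over all genes, the 2198 calls for Aβ42 against Aβ40 in microglia became 752 with a replicate block, 106 in the fit of the 2 groups, 4329 at an unadjusted p and 99 to 6004 with 1 library left out, and the 10 calls in astrocytes became 0, 265, 737 and 0 to 4, with 141 by DESeq2 and 6 with 10 counts in every library. With library totals in place of scaling, the median over all genes in the untreated comparison moved to -0.28, and all 7 factors were still called.

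Replicate numbers are shared between groups, but same-numbered libraries deviated together (r over 0.1) in only 1 of 9 microglial and 2 of 9 astrocyte pairs (r -0.21 to 0.24 and -0.59 to 0.40), so the numbers were not taken as pairs. With a replicate block 1 factor, Ikzf1, was called between Aβ42 and Aβ40 in microglia, and the block changed no other count of called factors.

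Among the values that changed sign, in the Aβ40 response difference Sall1 was at 0.042 with DESeq2 size factors, 0.017 with library totals, 0.033 with 10 counts in every library and 0.042 by DESeq2's Wald test. With 1 library left out it ranged from -0.12 to 0.042, and Maf from -0.069 to 0.31. For Aβ42 against Aβ40 in microglia the same fits gave -0.11 to 0.084 for Runx1, -0.35 to 0.038 for Maf and -0.076 to 0.018 for Tal1, and in astrocytes -0.047 to 0.044 for Sall1, -0.0091 to 0.39 for Ikzf1 and -2.11 to 0.10 for Tal1. Mef2a in astrocytes ranged from -0.17 to 0.50 with Aβ42 and from -0.31 to 0.36 with Aβ40. Depth limits Ikzf1 and Tal1 in astrocytes, which had 0 to 14 counts per treated library.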
